A study of Oryctolagus cuniculus with 6 samples.

Results

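The genes described here are the 5 that the authors' deposited enrichment table lists for non-motile cilium assembly, out of 16815 genes in the count table. None of the 5 is also listed for cilium movement, so all 5 were kept. They are ENSOCUG00000000342, ENSOCUG00000003973, ENSOCUG00000001320, ENSOCUG00000013015 and ENSOCUG00000004011. The listed genes come from a cluster that the authors formed, by a rule that the sources used here leave unstated, within the study these libraries belong to. The difference between the groups is therefore taken to have chosen the members, and it is given as a description that supports nothing.

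RNA was sequenced from the trachea of wild-type rabbits (Oryctolagus cuniculus) on day 14 in 2 groups of 3 libraries. In the hydrogel group the epithelial defect was treated with LA@PA-TA@C. Tracheae of the blank group had an epithelial deficiency and no labelled treatment. Both groups were therefore injured, and no uninjured trachea was sequenced among the libraries used here. The submitters describe 3 biological replicates per group, and the labels give no sex, age or strain. Libraries held 16827419 to 23095010 counted reads in hydrogel and 17292087 to 23390531 in blank. On the first principal component of all genes tested, which held 54.7% of the variance, the scores, in log2 units, were 67.8 to 102.55 for hydrogel libraries and -159.68 to -31.1 for blank libraries.

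A non-motile or primary cilium is a microtubule-based antenna that projects from the surface of many cell types and receives mechanical and chemical signals, among them Hedgehog. It grows from a basal body, and its parts are carried along the axoneme by intraflagellar transport. Motile cilia of multiciliated airway cells, which move mucus, are built with much of the same transport machinery but also need dynein arms and other parts for beating. A gene annotated to assembly of the non-motile form may therefore serve both. Of the 5 members, 4 are also listed for cilium assembly and ENSOCUG00000003973 is listed for non-motile cilium assembly alone. None is listed under any of the other terms of the 27 in the authors' table.

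In the authors' deposited table the 5 members are 17.2% of the 29 background genes annotated to the term. Cilium movement has 6 listed genes, 60.0% of 10, and cilium assembly has 14, or 15.7% of 89. All 3 lists come from 1 cluster of 153 genes, within a background of 8089. The rest of the genes annotated to the non-motile term are not analysed here, because the table names only those listed. None of the 16815 identifiers could be paired with a symbol in the reference gene table, so no member has a gene name, a position, a length or a sequence here, and what each member does cannot be stated. For the same reason the labelled tissue could not be checked against marker genes, and levels are compared between libraries and not between genes.

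ENSOCUG00000000342 stood apart from the other members. It was at 16.9, 71.8 and 67.8 CPM (read counts scaled to a common library size with TMM factors) in hydrogel replicates 1, 2 and 3, against 2.82, 0.0849 and 0.0620 CPM in the 3 blank replicates in the same order. These are 388, 1705 and 1133 reads in hydrogel, against 60, 2 and 1 reads in blank. Hydrogel and blank libraries did not overlap, and blank replicate 1 was 45.4-fold above blank replicate 3. The mean was 52.2 ± 30.6 CPM in hydrogel and 0.987 ± 1.58 CPM in blank (SD, n = 3 each), and the fitted log2 fold change was 5.69 (approximate standard error 1.35). Counts of 2 and 1 carry exact 95% Poisson intervals of 0.242 to 7.22 and 0.0253 to 5.57 reads, which cover counting error only. The fold change rested on blank replicate 1: without it the log2 fold change was 9.33.

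ENSOCUG00000003973 was at 156 to 332 CPM in hydrogel, against 19.3 to 52.5 CPM in blank. Hydrogel replicates 1, 2 and 3 were at 156, 332 and 283 CPM, against 52.5, 24.0 and 19.3 CPM in the 3 blank replicates in the same order. Every hydrogel library was thus above every blank one, with the lowest hydrogel value 2.97-fold above the highest blank value. The means were 257 ± 90.8 CPM in hydrogel and 32.0 ± 18.0 CPM in blank (SD, n = 3 each), and the log2 fold change was 3.01 (approximate standard error 0.47).

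ENSOCUG00000001320 was at 94.7, 197 and 247 CPM in hydrogel replicates 1, 2 and 3, against 58.9, 38.2 and 36.7 CPM in the 3 blank replicates in the same order. Its groups did not overlap, and hydrogel replicate 1 was the nearest to blank. The means were 179.5 ± 77.5 CPM in hydrogel and 44.6 ± 12.4 CPM in blank (SD, n = 3 each), and the log2 fold change was 2.01 (approximate standard error 0.38).

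ENSOCUG00000013015 and ENSOCUG00000004011 had the smallest differences. ENSOCUG00000013015 was at 84.2, 133 and 132 CPM in hydrogel replicates 1, 2 and 3, against 62.3, 33.5 and 36.3 CPM in the 3 blank replicates in the same order. The groups did not overlap, but hydrogel replicate 1 was only 1.35-fold above blank replicate 1, the highest blank library. Its log2 fold change was 1.40 (approximate standard error 0.31), with means of 116 ± 27.7 CPM in hydrogel and 44.0 ± 15.9 CPM in blank (SD, n = 3 each). ENSOCUG00000004011 was at 44.4, 76.5 and 75.0 CPM in hydrogel replicates 1, 2 and 3, against 36.2, 27.9 and 16.5 CPM in the 3 blank replicates in the same order. Here the gap between the groups was the narrowest of the 5, with hydrogel replicate 1 only 1.23-fold above blank replicate 1. The log2 fold change was 1.28 (approximate standard error 0.36), with means of 65.3 ± 18.1 CPM in hydrogel and 26.9 ± 9.86 CPM in blank (SD, n = 3 each).

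**Figure D1:**
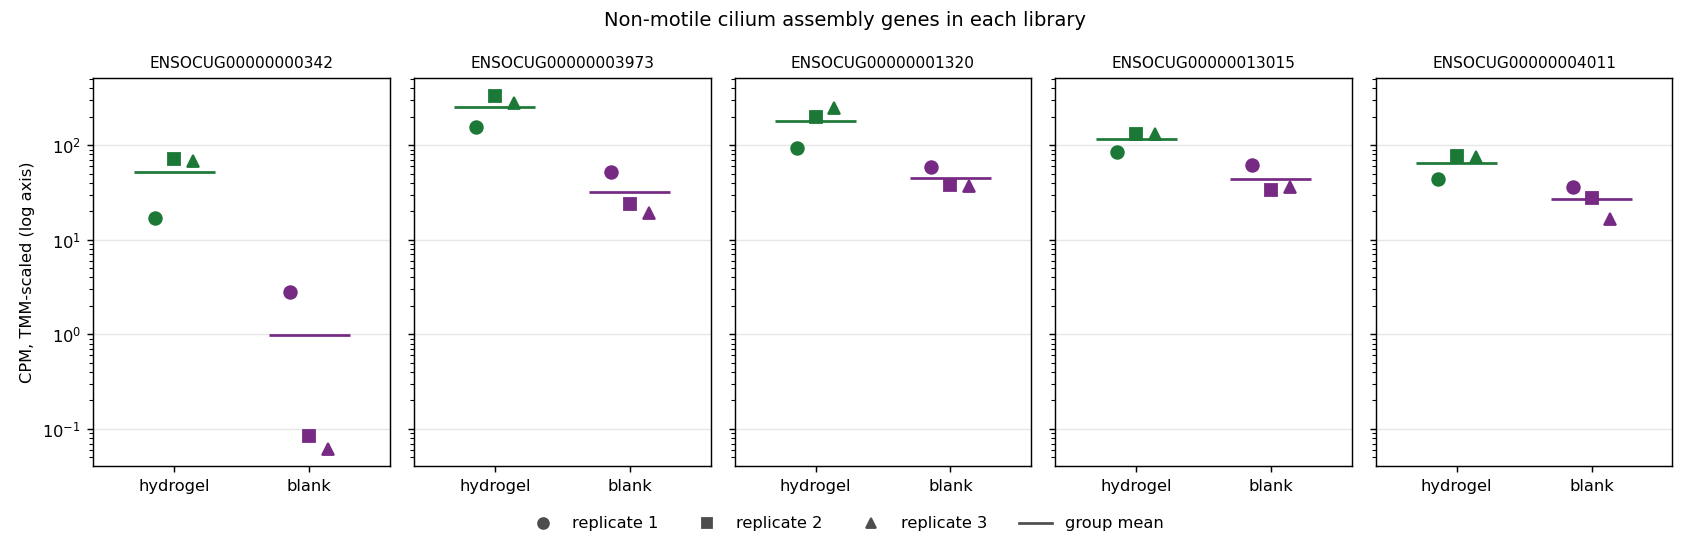
TMM-scaled CPM on a log axis of the 5 non-motile cilium assembly genes in 3 hydrogel and 3 blank libraries, 1 panel per gene, with marker shape for the replicate number and a bar at the group mean. The groups do not overlap in any panel, hydrogel replicate 1 is the lowest hydrogel library and blank replicate 1 the highest blank library in all 5, and ENSOCUG00000000342 alone has blank libraries under 1 CPM.

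Summed over the 5 members and without TMM scaling, the level was 407, 833 and 799 CPM in hydrogel replicates 1, 2 and 3, against 194, 138 and 102 CPM in the 3 blank replicates in the same order. In bulk tissue, fewer cells of a type and less RNA per cell cannot be told apart. All 5 members passed the filter on low counts, and all 5 had hydrogel libraries above blank libraries without overlap, where 18.3% of the 13598 genes tested did. Of the 5, ENSOCUG00000003973, ENSOCUG00000001320 and ENSOCUG00000013015 were called higher in hydrogel with an adjusted p under 0.05 in edgeR's quasi-likelihood test (Benjamini-Hochberg over all genes tested), where 4.49% of all genes tested were. ENSOCUG00000000342 and ENSOCUG00000004011 did not pass. Because the members are taken to have been chosen on this contrast, nothing is read from these shares. With the DESeq2 test all 5 passed, beside 8.75% of genes. Without hydrogel replicate 2 none of the 5 passed in edgeR, beside 0.036% of genes, and without hydrogel replicate 3 none passed, beside 0.0501%. All 5 had an unadjusted p under 0.05 in both of these fits. The count was 2 without hydrogel replicate 1 (2.81% of genes) and 4 without blank replicate 1 (4.31%). It was 1 without blank replicate 2, beside 2.73% of genes, and again 1 when blank replicate 3 was left out, beside 3.04%. With the replicate number as a block it was 0, beside 0.0735% of genes, and all 5 again had an unadjusted p under 0.05.

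The size of the difference was not even within the list. Its median log2 fold change was 2.01, from 1.28 to 5.69, beside a median of -0.03 over all genes tested. Without ENSOCUG00000000342 the median of the other 4 members was 1.70. Expressed per gene, which needs no gene length, the blank mean was 41.2% of the hydrogel mean for ENSOCUG00000004011 and 37.9% for ENSOCUG00000013015. It was 24.9% for ENSOCUG00000001320, 12.4% for ENSOCUG00000003973 and 1.89% for ENSOCUG00000000342. The authors' deposited table of differential genes is limited to adjusted p-values up to 0.05 and to log2 fold changes beyond 2 in either direction. Of the 5 members, 3 appear in the authors' deposited table, and ENSOCUG00000001320 lies just inside it at 2.02 (standard error 0.42). By the same limits 5.4% of genes were higher in hydrogel when the DESeq2 test was repeated. The other 2 lie outside, and the repeat gave log2 fold changes of 1.41 for ENSOCUG00000013015 and 1.29 for ENSOCUG00000004011. The enrichment list therefore holds genes that the table of differential genes does not.

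Beside the motile genes the differences were smaller for most members. The 6 genes listed for cilium movement, the beating of the axoneme, had a median log2 fold change of 5.33, from 2.73 for ENSOCUG00000025031 to 6.18 for ENSOCUG00000009400, and 4 of the 6 were called higher. All 6 had groups that did not overlap, beside 18.3% of genes tested, and the 4 calls stand beside 4.49%. All 6 are in the authors' table. In 4 of the 6, blank replicates 2 and 3 held 1 to 11 reads each, while blank replicate 1 held 69 to 179. These fold changes therefore rest on blank replicate 1, as that of ENSOCUG00000000342 does. Without blank replicate 1 the cilium movement median was 8.29, and the non-motile median was 2.26. Of the 5 non-motile members, 3 lay below the lowest cilium movement gene, while ENSOCUG00000003973 and ENSOCUG00000000342 lay above it. In turn, 3 of the 6 cilium movement genes lay above ENSOCUG00000000342. The 9 genes listed for cilium assembly and for neither other term had a median of 1.68, from 1.22 to 4.48, and 7 of the 9 lay below the lowest cilium movement gene. Of the 9, 7 were called higher, again beside 4.49% of genes tested.

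The calls in these lists moved with single libraries. Without blank replicate 1, where 4.31% of all genes were called higher, 6 of the 6 cilium movement genes and 3 of the 9 cilium assembly genes were called. With hydrogel replicate 1 left out (2.81% of genes) the counts were 3 of 6 and 8 of 9. With blank replicate 2 left out (2.73%) they were 3 of 6 and 3 of 9, and with blank replicate 3 left out (3.04%) they were 2 of 6 and 1 of 9. None of either list was called when hydrogel replicate 2 (0.036%) or hydrogel replicate 3 (0.0501%) was left out. All 3 lists are taken to have been chosen on this contrast, so the difference in size between them was not tested.

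**Figure D2:**
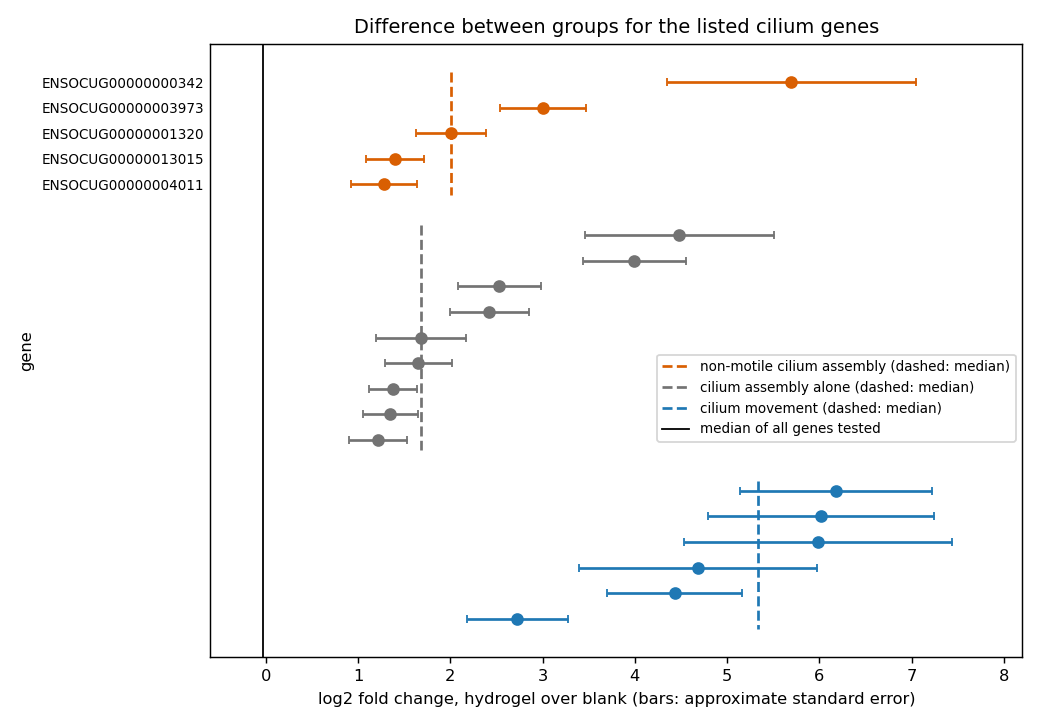
Log2 fold change of hydrogel over blank with its approximate standard error for the 5 non-motile cilium assembly genes (named), the 9 genes listed for cilium assembly alone and the 6 cilium movement genes, with a dashed line at the median of each list and a solid line at the median of all genes tested. The non-motile median is 2.01 and the cilium movement median 5.33, while ENSOCUG00000000342 at 5.69 lies among the cilium movement genes.

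The geometric mean level over the genes of a list was also taken library by library. The 5 non-motile members were at 62.4, 137 and 136 CPM in hydrogel replicates 1, 2 and 3, against 29.0, 11.0 and 9.28 CPM in the 3 blank replicates in the same order. The cilium movement genes were at 55.9, 132 and 118 CPM in hydrogel replicates 1, 2 and 3, against 7.64, 0.707 and 0.945 CPM in the 3 blank replicates in the same order. The log2 level of cilium movement minus that of non-motile assembly was -0.16, -0.05 and -0.20 in hydrogel replicates 1, 2 and 3, against -1.92, -3.95 and -3.29 in blank replicates 1, 2 and 3. Gene length affects each of these differences of levels equally in every library, so it cancels between the groups. The groups did not overlap, and the blank libraries differed among themselves by more than the hydrogel libraries did, with SDs of 0.08 in hydrogel and 1.03 in blank. Most cilium movement genes held only 1 to 11 reads in blank replicates 2 and 3, and ENSOCUG00000000342 held 2 and 1. The blank differences and their SD therefore depend on few reads and on the prior count added before the log. Without ENSOCUG00000000342 the level of the other 4 members was 86.3, 161 and 162 CPM in hydrogel replicates 1, 2 and 3, against 51.5, 30.5 and 25.7 CPM in the 3 blank replicates in the same order.

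The profiles of the genes over the 6 libraries were compared as a description. A profile includes the difference between the groups, so these distances largely restate the fold changes and are no separate evidence of likeness. For ENSOCUG00000000342 the reads in blank replicates 2 and 3 were also at or under the prior count of 2 added before the log. Most cilium movement genes held few reads in these libraries too, from 1 to 11 each, so the prior count bears on both profiles. After each gene's log2 CPM was centred on its own mean, the root mean square difference of ENSOCUG00000000342 was 0.62 from the mean profile of the cilium movement genes and 2.61 from that of the other 4 members, on the log2 scale. The other 4 members, with smaller fold changes, lay nearer to their own list. ENSOCUG00000003973 lay 1.52 from the cilium movement profile and 0.19 from the other members, and ENSOCUG00000001320 lay 2.12 and 0.71 from them. ENSOCUG00000013015 lay 2.33 from the cilium movement profile and 0.98 from the other members, and ENSOCUG00000004011 lay 2.42 and 1.06 from them. Conversely, ENSOCUG00000025031, the cilium movement gene with the smallest fold change, lay 0.17 from the mean profile of the 5 non-motile members. The means of the other members above each left out only the gene compared. All of them except the one set against ENSOCUG00000000342 itself therefore include that gene. The mean profile of the 5 members includes it too, and the members themselves lay 0.15 to 2.09 from that profile.

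Outside the 3 cilium lists, the 2 genes most like the non-motile mean profile were ENSOCUG00000008325 and ENSOCUG00000003769, at root mean square differences of 0.20 and 0.21 among 13526 candidates. Of the members, ENSOCUG00000003973 lay 0.15 from that mean profile. The others lay farther, from 0.57 for ENSOCUG00000001320 to 2.09 for ENSOCUG00000000342, so a gene near the mean is not near most members. ENSOCUG00000008325 was at 321.5, 526 and 492 CPM in hydrogel replicates 1, 2 and 3, against 115.0, 51.9 and 33.0 CPM in the 3 blank replicates in the same order. ENSOCUG00000003769 was at 157, 327 and 306 CPM in hydrogel replicates 1, 2 and 3, against 53.2, 30.3 and 17.4 CPM in the 3 blank replicates in the same order. Both lay near ENSOCUG00000003973 in the size of their difference, with log2 fold changes of 2.74 and 2.97 beside its 3.01. All of these values come from the same 6 libraries, and the likeness again includes the difference between the groups.

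Because the authors' rule for the cluster is not known here, the order of libraries inside a group may have entered the choice of members, and it is given as a description. Hydrogel replicate 1 was the lowest hydrogel library for all 5 members, where it was the lowest for 40.6% of all genes tested and for 77.9% of all genes called higher. Blank replicate 1 was the highest blank library for all 5 members, where it was the highest for 34.8% of all genes tested and for 66.7% of those called higher. Among the cilium movement genes, hydrogel replicate 1 was lowest in 5 of 6 and blank replicate 1 highest in 6 of 6. For the genes listed for cilium assembly alone these counts were 9 of 9 and only 5 of 9. The 2 libraries that lay nearest to the other group on the first principal component were also hydrogel replicate 1 (67.8) and blank replicate 1 (-31.1), and the part of this in the order of the members was not tested.

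The size of these steps inside a group differed between members. Hydrogel replicate 2 exceeded hydrogel replicate 1 by 4.24-fold for ENSOCUG00000000342, 2.13-fold for ENSOCUG00000003973, 2.08-fold for ENSOCUG00000001320, 1.72-fold for ENSOCUG00000004011 and 1.58-fold for ENSOCUG00000013015. Blank replicate 1 exceeded blank replicate 3 by 45.4-fold for ENSOCUG00000000342 and by 1.61-fold to 2.72-fold for the other 4. ENSOCUG00000000342, with the largest difference between the groups, therefore also varied most inside each of them. The SD of its log2 CPM was 1.18 in hydrogel and 2.37 in blank, whereas the median gene tested had 0.37 in hydrogel and 0.49 in blank. For the other 4 members the SD ran from 0.38 to 0.72 in hydrogel and from 0.38 to 0.76 in blank.

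**Figure D3:**
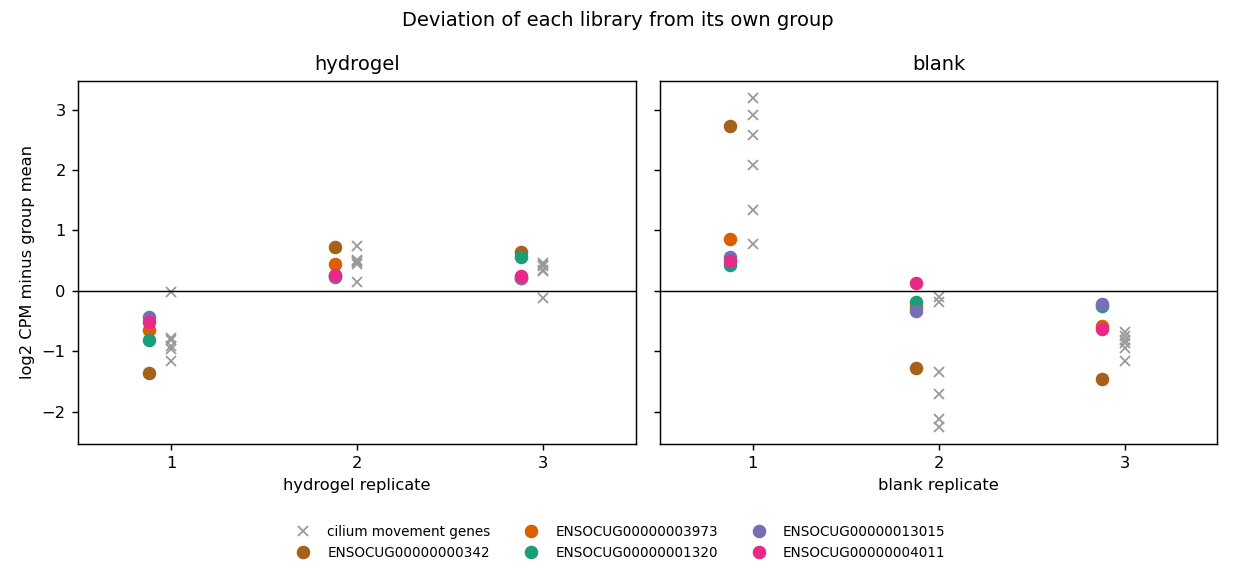
Log2 CPM minus the mean of the library's own group, by replicate, for the 5 non-motile cilium assembly genes (filled circles) and the 6 cilium movement genes (crosses), in hydrogel (left) and blank (right). All 5 members lie below 0 in hydrogel replicate 1 and above 0 in blank replicate 1, and ENSOCUG00000000342 has the widest spread of the members in both groups, with an SD of 1.18 in hydrogel and 2.37 in blank.

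With each library left out in turn, every member kept a higher level in hydrogel. Over these fits the log2 fold change was 2.75 to 3.57 for ENSOCUG00000003973, 1.68 to 2.31 for ENSOCUG00000001320 and 1.23 to 1.74 for ENSOCUG00000013015. It was 1.02 to 1.55 for ENSOCUG00000004011 and 5.13 to 9.33 for ENSOCUG00000000342. For ENSOCUG00000000342 the highest value came without blank replicate 1, which leaves 2 blank libraries with 2 reads and 1 read.

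**Figure D4:**
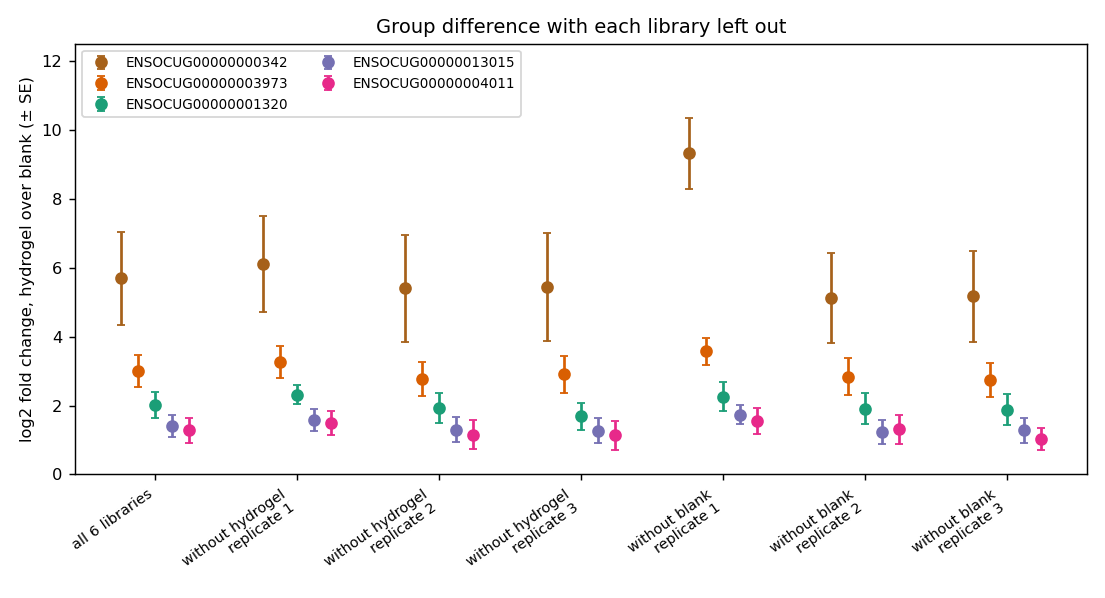
Log2 fold change of hydrogel over blank with its approximate standard error for the 5 non-motile cilium assembly genes, with all 6 libraries and with each library left out. All values lie above 0, and ENSOCUG00000000342 moves the most, with 5.69 from all libraries and 9.33 without blank replicate 1.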

How the data were processed

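The authors deposited whole-number read counts per gene for 6 libraries, once together and once per library, with identical values. Per the submitters' processing notes, HISAT2 2.2.1, featureCounts 2.0.2 and DESeq2 1.34.0 were among the tools. The notes name GRCh38 and mm10. The sources used here do not state the rabbit build, the annotation or any use of strand, so overlapping genes and near-identical copies may share reads. Tables named FPKM hold a deposited signal equal to the count over 1 factor per library (100% of values, relative tolerance 1e-06), without gene length. The authors' deposited comparison gives log2 fold changes, their standard error (entered as a score by the authors) and adjusted p-values.

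Counts were fitted with edgeR 4.0.16 in R 4.3.3 (quasi-likelihood, TMM scaling, filterByExpr by group, group as the only term), with Benjamini-Hochberg adjustment over 13598 genes. Standard errors are taken from the F statistic and are approximate. A prior count of 2 was added for log2 CPM. The fit was also run on simulated data, with some genes changed 4-fold and each library drawn independently. No gene changed there was as low in blank as ENSOCUG00000000342, and replicates that vary together were not simulated. Nothing is therefore read from it for the members. Alternatives used DESeq2 1.42.0, limma 3.58.1, other scalings and filters, leaving out each library, and a block for the replicate number. P-values set the difference between the groups against the spread between these libraries. For members taken to have been chosen on this contrast they are a description only.

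The members, lists and tests were chosen with earlier results of these data known. Every member is named. The 2 genes of most similar profile were taken among genes with a mean of at least 10 counts, outside the cilium lists, and of the cilium movement genes the lowest and the highest fold change are named. Lists of cilium genes and cell type markers by symbol could not be used. Figures were drawn with matplotlib 3.10.9.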

Additional observations from a re-analysis of the deposited data

How the results depend on the processing

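All 5 members were higher in hydrogel under all 14 alternatives. Their median log2 fold change of 2.01 ranged from 1.68 to 2.31, and in every fit it was the value of ENSOCUG00000001320. The shifts were under 0.78, the SD between replicates of the members' mean log2 level. That SD includes ENSOCUG00000000342 and is not the spread of the median. The calls were less stable. Genes called over all tested, in either direction, were 865, against 2104 with the DESeq2 test, 609 with limma-voom, 15 with the replicate block and 7 to 741 with 1 library left out. The share called higher was 4.49%, against 8.75% with the DESeq2 test and 0.0735% with the replicate block. It was 0.036% to 4.31% with 1 library left out. For limma-voom this share was not taken, so its counts below stand beside the 609 calls only. Members called were 3, against 5 with the DESeq2 test, 0 with the replicate block and 0 to 4 with 1 library left out. Cilium movement genes called were 4, against 2 with limma-voom, 0 with the replicate block and 0 to 6 with 1 library left out. Genes listed for cilium assembly alone and called were 7, against 9 with the DESeq2 test, 1 with limma-voom, 0 with the replicate block and 0 to 8 with 1 library left out. The DESeq2 test called all 6 cilium movement genes. All 5 members and all 6 cilium movement genes kept an unadjusted p under 0.05 in edgeR in every fit with no call. The cilium movement median of 5.33 was 6.81 with limma-voom and 4.80 to 8.29 with 1 library left out. The cause of these differences was not tested.

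Libraries with the same number showed no shared deviation (correlations of -0.20, 0.01 and -0.10), and the labels do not say that the replicate number pairs animals, so a call lost with the replicate block is not read as a weaker effect. Of the members' single fold changes, 51 kept their side of the threshold, 14 lost it and 5 gained it, and none of the 30 group means recomputed for members under another scaling moved by more than 1 SD. Each member had an unadjusted p under 0.05 in every fit except ENSOCUG00000000342 with limma-voom, where it was 0.0613. Depth limits ENSOCUG00000000342 in blank, where 2 libraries held 2 reads and 1 read.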
